A study of Homo sapiens with 12 samples.

Results

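The histone genes were examined in RNA from MOLT4, an established human T lymphoblast line from an acute lymphoblastic leukaemia. The cells were labelled wild type and formed 4 groups of 3 samples. One received DMSO vehicle and was collected at 6 h. Both groups given 955 received 0.1 µM and were collected at 1 h and at 6 h. The last received 1 µM SNS-032 and was collected at 6 h. SNS-032 is a kinase inhibitor whose targets include CDK9, a kinase of the transcription machinery, and 955 is a piperlongumine conjugate that carries SNS-032 as its warhead. The series was made to compare 955 with that warhead. The doses of the 2 compounds differ, and the 1 h group was set against vehicle collected at 6 h, so time in culture and treatment cannot be told apart there.

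Members were the protein-coding genes whose NCBI gene ID maps to a current histone symbol (H1-, H2A, H2B, H3C, H3-, H4C, H4- or MACROH2A). RefSeq holds 94 such genes, and 38 of them were among the 5759 genes of the authors' deposited table. Of 70 genes counted as replication-dependent by their symbol (H2AC, H2BC, H3C or H4C with a number, and H1-1 to H1-6), 34 were listed: 4 for H1, 9 for H2A, 10 for H2B, 8 for H3 and 3 for H4. Of 24 replacement histone genes, 4 were listed: H2AX, H2AZ1, H3-3A and H3-3B. The other 56 are not analysed here. Each listed gene had a false discovery rate (FDR) under 0.05 in at least 1 comparison. Its largest log2 fold change was at least 1.00 in size. The threshold used below has the same bounds, so passing it was partly a condition of being listed. The members are thus histone genes listed for having changed, and the counts below do not extend to the others.

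Replication-dependent histone genes supply the bulk of chromatin protein while DNA is copied. They lie in clusters, mostly lack introns, and their mRNAs end in a stem-loop bound by SLBP instead of a poly(A) tail. Replacement histones are made throughout the cell cycle from genes with introns and polyadenylated mRNAs, and H2AX can give both kinds of mRNA. CDK9 acts in transcription elongation, and the 3′ ends of histone mRNAs are formed as the gene is transcribed.

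The stem-loop is shown because it is the element that sets the first class apart at the RNA level. GENCODE release 29 transcripts were searched for GGNNNTNTNNANNGCC in which the first and the last 6 bases pair. It was found in 13 of the 34 replication-dependent members, in 1 of the 4 replacement members (H2AX), and in 24 of 19037 other protein-coding genes (0.126%). A further 18 of the 34 have models that stop at the stop codon, so their 3′ ends could not be searched. The models of H1-4, H2AC11 and H4C3 reach beyond the coding sequence, and no match was found in them. Printed 5′ to 3′ as DNA, with the paired stem in capitals and the loop in lower case, the 4 sequences were these.
H2AC6, H2AC8, H2AC13, H2BC8, H2BC9, H2BC18, H2BC26 and H3C10: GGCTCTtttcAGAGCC
H2BC4, H2BC5, H2BC7 and H3C8: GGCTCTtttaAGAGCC
H4C5: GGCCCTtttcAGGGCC
H2AX: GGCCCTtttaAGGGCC

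The upstream regions of 3 members are shown, each the 250 bases before the RefSeq start on GRCh38.p14, along the gene's strand. Capitals mark 3 motifs known from histone promoters, on either strand. They are the TATA box, searched as TATAAA. They are also the CCAAT box, searched by those letters, and the octamer, searched as ATTTGCAT. H2BC8 stands for the shared promoters, since it starts 233 bases from H2AC8 on the other strand. H3C10 was the one replication-dependent gene past the threshold at 1 h. H2AX fell at 6 h.
H2BC8, chr6:26216689-26216938, minus strand: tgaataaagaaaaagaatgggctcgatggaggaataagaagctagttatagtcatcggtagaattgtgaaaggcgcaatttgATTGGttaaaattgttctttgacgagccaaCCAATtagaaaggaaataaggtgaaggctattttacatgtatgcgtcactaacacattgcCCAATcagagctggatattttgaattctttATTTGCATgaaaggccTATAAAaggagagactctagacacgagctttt
H3C10, chr6:27809801-27810050, plus strand: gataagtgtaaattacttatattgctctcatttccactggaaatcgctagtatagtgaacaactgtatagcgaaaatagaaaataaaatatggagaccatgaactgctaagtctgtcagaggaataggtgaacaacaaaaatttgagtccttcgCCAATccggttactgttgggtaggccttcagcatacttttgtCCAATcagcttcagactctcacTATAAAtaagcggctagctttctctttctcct
H2AX, chr11:119095466-119095715, minus strand: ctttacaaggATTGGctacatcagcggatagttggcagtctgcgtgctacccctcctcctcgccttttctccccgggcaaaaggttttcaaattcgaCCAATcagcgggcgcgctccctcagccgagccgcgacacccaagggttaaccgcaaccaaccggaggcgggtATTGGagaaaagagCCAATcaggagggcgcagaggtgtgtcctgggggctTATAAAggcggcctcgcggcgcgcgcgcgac

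Of the 34 replication-dependent members, 30 had a RefSeq promoter window of 300 bases. On either strand, CCAAT was in 28 of the 30 (93.3%), TATAAA in 19 (63.3%) and the octamer in 16 (53.3%). The shares of 27305 promoters of that length were 35.7%, 11.95% and 1.80%. In the 250 upstream bases of H2AC8, H2BC4, H2BC14 and H2BC17, TATAAA was only on the strand opposite to the gene. The octamer was in 7 of 8 H2A and 8 of 10 H2B windows, in 1 of 6 H3 windows and in 0 of 6 H1 and H4 windows. Windows of genes that share a promoter region overlap, so the same octamer can be counted for both genes. The H3 window was that of H3C4, whose octamer is the one in the window of H2BC7. All 4 replacement members had CCAAT and 3 had TATAAA, so these letters were shared by genes that rose and genes that fell. The octamer was in 1 of the 4, H3-3B, so it was not confined to the replication-dependent class. A match is a string in the sequence and was not tested as a binding site.

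The values per gene are the authors' log2 fold change against DMSO, its FDR, and the average level over all samples in log2 CPM, where CPM is a read count scaled to the library's total. A standard error (SE) implied by the authors' F statistic is given in place of replicate values, which are not analysed here. It reflects the authors' model of the spread within groups of 3, and nothing in the labels says whether the replicates were separate cultures. The threshold used here is an FDR under 0.05 together with a log2 fold change of 1 or more in size, up or down. In all, 8.44% of the 5759 genes passed it after 1 h of 955, 85.3% after 6 h and 90.2% after SNS-032. Sequencing depth is unknown. Of 15 T lymphoblast markers 5 were listed, and CD7 and CD3G had average levels of 7.06 and 7.13 log2 CPM in the authors' deposited table. Of 16 markers of other blood cells 3 were listed, the highest, CD79A, at 3.94 log2 CPM in the authors' deposited table. CD79A was at 0.97 with 955 and 1.10 with SNS-032 at 6 h, past the threshold and higher with the latter, by the authors' deposited table. Of the 5 T lymphoblast markers 2 were higher and 2 lower with 955, with CD2 at -3.17 and CD4 at 2.26 with 955 in the authors' deposited table. The part of these markers' cells in the histone result was not tested.

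Replication-dependent histone transcripts rose after 6 h of either compound on the authors' scaling, and on mitochondrial scaling 14 of 34 did with 955 and 9 of 34 with SNS-032. After 6 h of 955, 34 of 34 were past the threshold and higher in the authors' deposited table, where 35.2% of all listed genes were higher. Their median log2 fold change was 3.22, a 9.30-fold difference, against a median of -1.03 over the 5759 listed genes, and the range was 1.62 to 7.33. After 6 h of SNS-032, 32 of 34 were past the threshold and higher (37.8% of listed genes), with a median of 2.88 and a range of 1.29 to 5.88 in the authors' deposited table. The 2 exceptions were H2BC17, at 1.93 with an FDR of 0.182, and H4C5, at 1.29 with 0.0964, in the authors' deposited table.

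These directions hold under the authors' scaling and depend in part on it. The 13 mitochondrially encoded mRNAs, products of the mitochondrial RNA polymerase, were higher by a median of 2.07 with 955 and 2.35 with SNS-032 at 6 h in the authors' deposited table. When these medians were subtracted, 14 of 34 replication-dependent members were past the threshold and higher with 955, 0 were lower, and 7 had negative values, with a median of 1.15. With SNS-032 under the same scaling 9 were higher, 0 lower and 8 negative, with a median of 0.54. Centring on the median of the listed genes gave 34 and 33 higher members. The share of all listed genes past the threshold was not computed under either scaling, so these counts cannot be set against it. In bulk RNA, more RNA of a gene per cell and a larger share of cells that make it cannot be told apart.

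**Figure D1:**
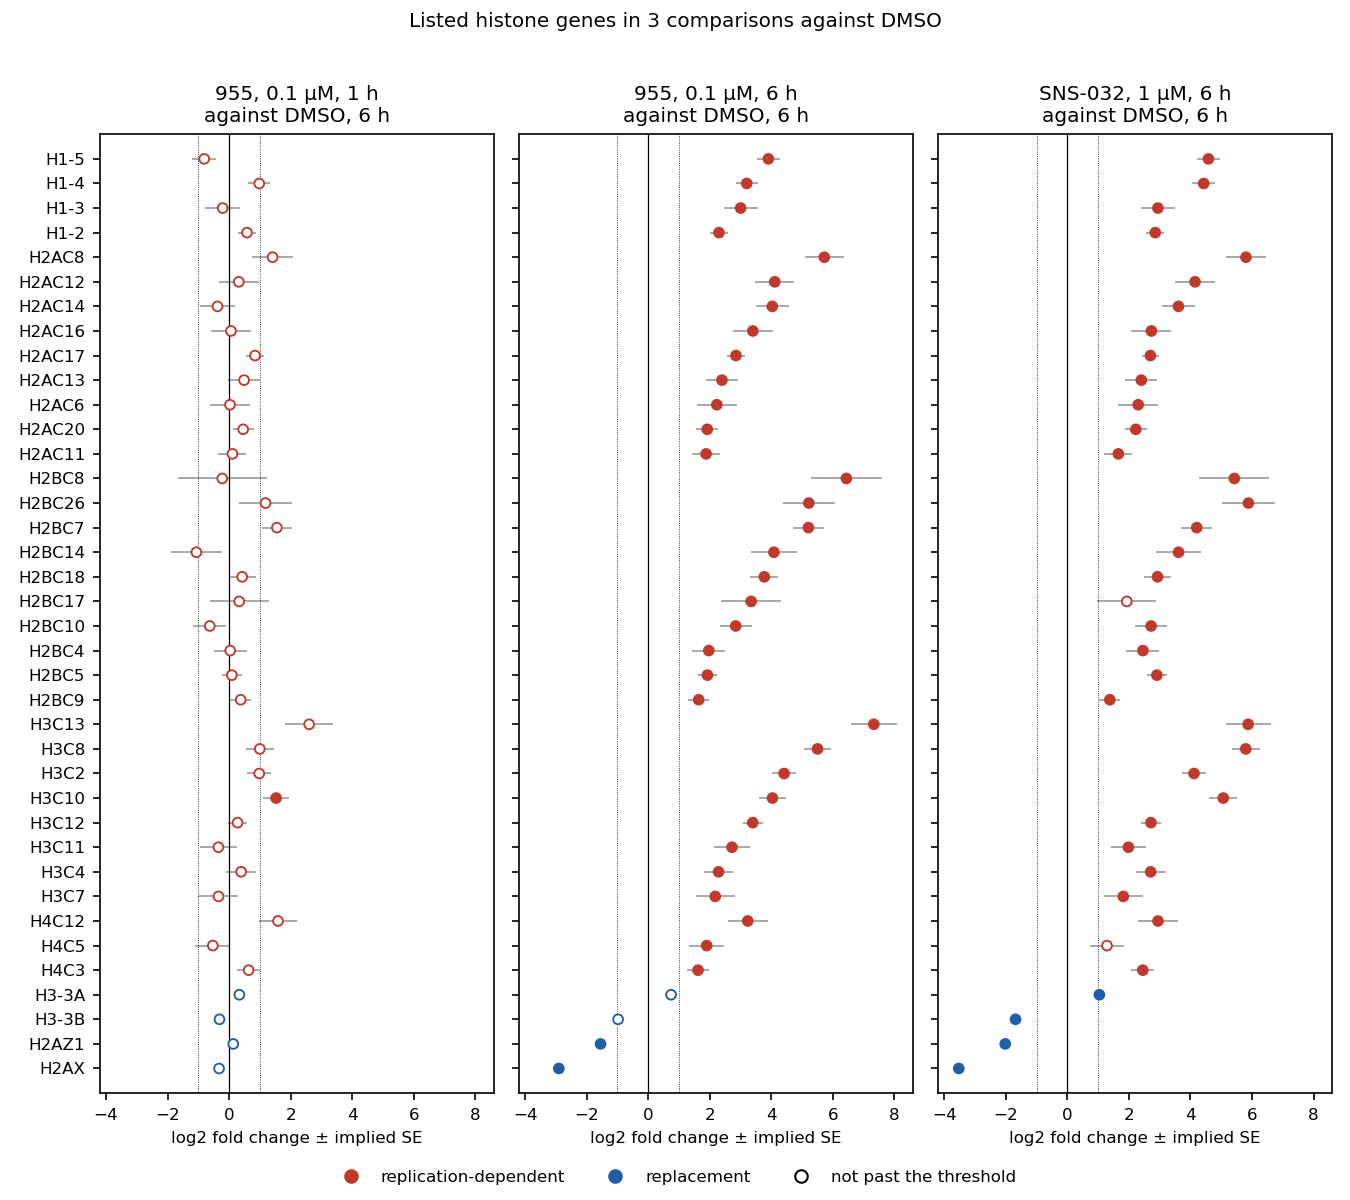
Log2 fold change against DMSO (x axis) of each of the 38 listed histone genes (rows) with 955 for 1 h, 955 for 6 h and SNS-032 for 6 h. Bars are the implied SE, filled points are past the threshold, red marks replication-dependent and blue replacement genes. The replication-dependent genes lie between 1.62 and 7.33 with 955 at 6 h on the authors' scaling (7 turn negative on mitochondrial scaling), while H2AX, H2AZ1 and H3-3B lie below 0 (H3-3B at 0.05 after centring).

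Among the core histones, which form the protein spool that DNA wraps around, the largest rise with 955 at 6 h was that of the H3 gene H3C13 (gene ID 653604). In the authors' deposited table its log2 fold change was 7.33 (implied SE 0.75, FDR 2.44e-08), the 7th highest of the 5759 genes. With SNS-032 it was at 5.87 (SE 0.73, FDR 5.09e-07) in the authors' deposited table. Of its 50-base windows 78.2% also occur in another histone gene, so reads may have been split between copies. The H2B gene H2BC8 (8339) and the H2A gene H2AC8 (3012), which share a promoter region, came next. H2BC8 was at 6.44 (SE 1.16, FDR 0.000804) with 955 and 5.43 (SE 1.14, FDR 0.00242) with SNS-032, by the authors' deposited table, on 11.7 denominator degrees of freedom against a median of 23.3. Its partner H2AC8 was at 5.72 (SE 0.64, FDR 1.18e-07) and 5.80 (SE 0.65, FDR 8.76e-08) in the authors' deposited table. For both genes of the pair the 2 compounds gave values of more than 4 SE.

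The H3 gene H3C8 (8355) was at 5.50 (SE 0.44, FDR 6.14e-10) with 955 and 5.80 (SE 0.45, FDR 2.31e-10) with SNS-032, by the authors' deposited table. H2BC26 (128312), an H2B gene on chromosome 1, was at 5.22 (SE 0.84, FDR 0.000372) and 5.88 (SE 0.85, FDR 0.000152) in the authors' deposited table. H2BC7 (8343) was at 5.21 (SE 0.51, FDR 1.33e-08) and 4.20 (SE 0.50, FDR 2.29e-07) in the authors' deposited table. The next by size were H3C2 (8358), at 4.42 (SE 0.40) with 955 and 4.12 (SE 0.40) with SNS-032, and H2AC12 (85235), at 4.11 (SE 0.64) and 4.15 (SE 0.64), all from the authors' deposited table. These 8 genes, taken as the largest changes at an average level of at least 1 log2 CPM, cover H2A, H2B and H3. That average includes the treated samples, so the filter keeps genes partly for being high there and is no independent check. If the average equals the mean CPM of 4 equal groups, their implied DMSO levels ran from 0.0397 (H3C13) to 0.398 CPM (H3C2).

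Linker histones of the H1 class bind between nucleosomes. All 4 listed rose after either compound, and on mitochondrial scaling their values were still above 0. In the authors' deposited table H1-5 (3009) was at 3.90 (SE 0.36, FDR 6.29e-09) with 955 and 4.58 (SE 0.37, FDR 5.5e-10) with SNS-032. H1-4 (3008) was at 3.20 (SE 0.36, FDR 1.16e-07) and 4.43 (SE 0.37, FDR 1.02e-09) in the authors' deposited table. For H1-3 (3007) the values were 3.003 (SE 0.56, FDR 0.000125) and 2.94 (SE 0.56, FDR 0.00015), and for H1-2 (3006) 2.30 (SE 0.29, FDR 7.42e-07) and 2.86 (SE 0.30, FDR 2.97e-08), both from the authors' deposited table.

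By family, the median log2 fold change with 955 at 6 h was 3.72 for H3, 3.56 for H2B, 3.10 for H1, 2.85 for H2A and 1.90 for H4 in the authors' deposited table. With SNS-032 the H1 median was the highest, at 3.69, followed by 3.42 for H3, 2.92 for H2B, 2.70 for H2A and 2.45 for H4 in the authors' deposited table. The families overlapped in both comparisons, and differences between them were not tested. The smallest rises with 955 were those of H4C3, at 1.62 (SE 0.37), H2BC9, at 1.64 (SE 0.34), and H2AC11, at 1.88 (SE 0.46), in the authors' deposited table.

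Of the 4 replacement histone genes, 2 were past the threshold and lower with 955 at 6 h and 0 higher in the authors' deposited table. That share is near the 50.1% of listed genes that were lower, and their median of -1.27 is near the -1.03 of all listed genes. After centring on the listed genes 1 was lower and 1 higher. H2AX (3014), the variant that is phosphorylated at DNA breaks, fell most, at -2.91 (SE 0.14, FDR 3.14e-13) with 955 and -3.53 (SE 0.15, FDR 1.73e-14) with SNS-032, by the authors' deposited table. H2AZ1 (3015), an H2A variant placed at promoters, was at -1.55 (SE 0.17, FDR 1.02e-06) and -2.02 (SE 0.17, FDR 3.96e-08) in the authors' deposited table. The 2 genes for H3.3, a variant deposited outside DNA replication, went apart. H3-3B (3021) was at -0.98 (SE 0.11, FDR 9.5e-08) with 955, just inside the fold bound, and -1.69 (SE 0.11, FDR 1.66e-11) with SNS-032, by the authors' deposited table, and centring on the listed genes moved the 955 value to 0.05. H3-3A (3020) was at 0.74 (SE 0.19, FDR 0.00679) with 955 and 1.04 (SE 0.19, FDR 0.000508) with SNS-032, by the authors' deposited table, and on mitochondrial scaling these became -1.33 and -1.31.

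With SNS-032 3 replacement genes were therefore lower (52.5% of listed genes) and 1 higher. The median of the replication-dependent members stood above that of the replacement members by 4.48 on the log2 scale with 955 at 6 h and by 4.73 with SNS-032, a difference that no rescaling of a comparison alters. Genes of one class are not replicates, so this difference carries no test. CENPA, the centromeric H3 variant, is outside the symbol rule and was taken from a separate list. It was at -2.36 (SE 0.18, FDR 3.72e-10) with 955 and -2.34 (SE 0.19, FDR 3.59e-10) with SNS-032, by the authors' deposited table.

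The classes also differed in level. Per kilobase of the longest GENCODE transcript, the average level of the replication-dependent members ran from -0.39 to 3.87 with a median of 2.10 (log2 CPM per kb), and that of the replacement members from 6.93 to 8.46. The average includes the treated samples in which the former were high. If it equals the mean CPM of 4 equal groups, the implied DMSO level of the replication-dependent members was 0.492 CPM at the median (0.0397 to 2.77) and that of the replacement members 408 to 504 CPM. The large folds thus start from low levels, where a fitted fold depends on the model used. Of 1625 other listed genes with average levels inside the range of the replication-dependent members, 725 (44.6%) were higher with 955 at 6 h, and their median was 0.60 in the authors' deposited table.

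**Figure D2:**
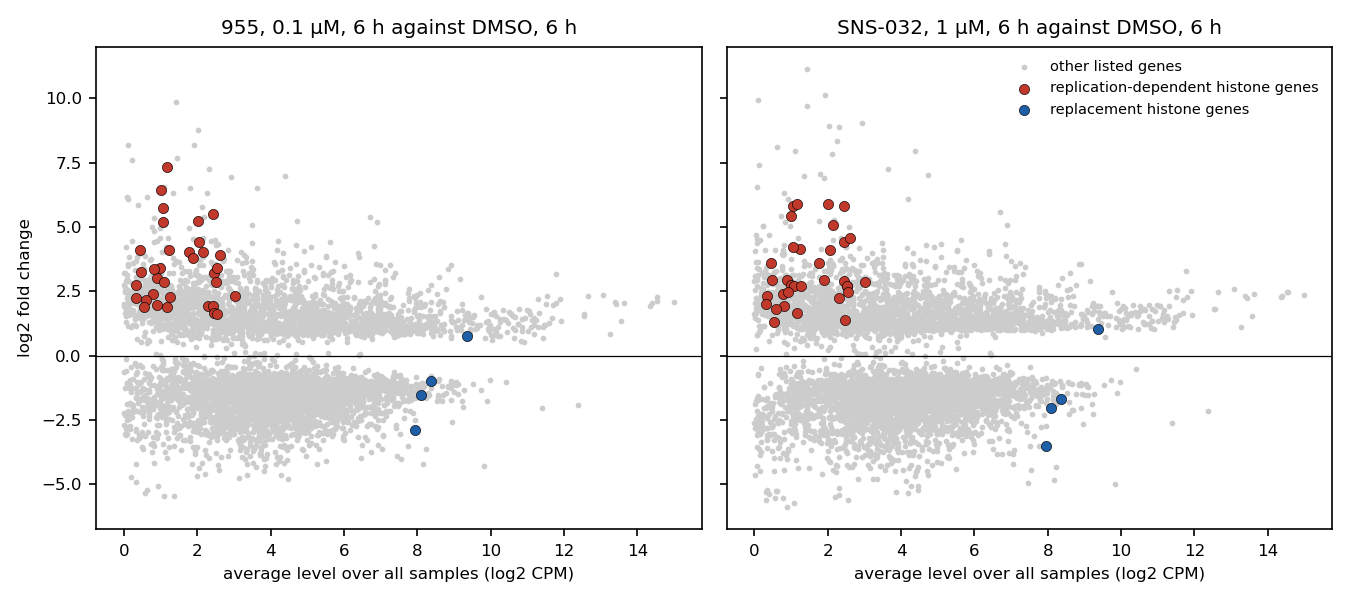
Log2 fold change against DMSO at 6 h (y axis) by average level over all samples in log2 CPM (x axis) for 955 and SNS-032, with replication-dependent histone genes in red, replacement genes in blue and the other listed genes in grey. On the authors' scaling the red points lie above 0 (7 and 8 turn negative on mitochondrial scaling) at average levels between 0.33 and 3.03, and the blue points lie at levels between 7.94 and 9.36.

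After 1 h of 955 a single replication-dependent gene was past the threshold. By the authors' own values 1 of 34 was past the threshold and higher (0.729% of listed genes) and 0 were lower. The median was 0.35 in the authors' deposited table, with 25 values above 0 and 9 below, and on mitochondrial scaling it was -0.32, with 10 above and 24 below. The gene was H3C10 (8357), at 1.53 (SE 0.43, FDR 0.0421) after 1 h, 4.04 (SE 0.44, FDR 6.61e-08) after 6 h of 955 and 5.07 (SE 0.45, FDR 2.46e-09) after SNS-032 in the authors' deposited table. On mitochondrial scaling its 1 h value was 0.85 and not past the threshold. H3C13 had the largest 1 h value, 2.60 (SE 0.79), with an FDR of 0.0636 in the authors' deposited table. H2BC14 had the lowest, -1.06 (SE 0.82, FDR 0.762), in the authors' deposited table. None of the 4 replacement genes was past the threshold at 1 h, with values from -0.33 to 0.33 by the authors' deposited table, where 7.71% of listed genes were lower.

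The difference between 6 h and 1 h of 955, both at 0.1 µM, was tested with an approximate contrast built from the 2 comparisons. It put 33 of 34 replication-dependent genes past the threshold and higher at 6 h (27.0% of listed genes, and 62.7% in either direction), with a median difference of 3.04. The exception was H4C3, with a difference of 0.98 (SE 0.36, adjusted p 0.0168), under the fold bound. The largest difference was that of H2BC8, 6.66 (95% interval 3.80 to 9.53), followed by H2BC14, 5.15 (3.53 to 6.76), H3C13, 4.73 (3.15 to 6.31), and H1-5, 4.71 (3.93 to 5.49). H2AX and H2AZ1 were lower at 6 h than at 1 h, by differences of -2.58 (-2.86 to -2.29) and -1.68 (-2.04 to -1.33), where 35.6% of listed genes were lower. On mitochondrial scaling the contrast left 18 histone genes higher and 3 lower, and the share of listed genes under that scaling was not computed. No vehicle was collected at 1 h, so time in culture and the effect of 955 cannot be told apart in this contrast.

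The 2 compounds are set side by side at 6 h, with the reservation that their doses differ by design. Of the 34 replication-dependent genes, 19 had the higher log2 fold change with 955 and 15 with SNS-032. Of the 38 members 0 passed in the approximate contrast between these groups (1.11% of listed genes, 0.851% higher and 0.260% lower with 955), and 8 had an unadjusted p under 0.05, 5 of them replication-dependent. The differences closest to it among replication-dependent genes were H1-4, lower with 955 by a difference of -1.23 (95% interval -1.99 to -0.47, adjusted p 0.0753), and H2BC5, at -0.98 (-1.66 to -0.31, adjusted p 0.124). The largest value was that of H3C13, at 1.46 (-0.07 to 2.98, adjusted p 0.366). Intervals of this width leave room for differences of more than a doubling for many members. Without the fold bound 2 replacement genes passed: H3-3B, which was higher with 955 by 0.71 (0.48 to 0.93, adjusted p 0.000797), and H2AX, by 0.62 (0.32 to 0.92, adjusted p 0.0196).

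Most members lie in the histone span of chromosome 6 (RefSeq, GRCh38.p14; the submitters' processing notes name hg38). The 30 listed there reach from 26031589 to 27893891 in 3 groups separated by more than 200 kb. The median change with 955 was 2.30 in the first group (17 genes, 26031589 to 26273412), 2.996 in the second (2 genes, 27133043 to 27147562) and 3.40 in the third (11 genes, 27808173 to 27893891), in the authors' deposited table. Values in the first group spread most, from 1.62 for H4C3 to 6.44 for H2BC8, against 2.39 to 4.08 in the third, by the authors' deposited table. Outside chromosome 6, H2BC18, H3C13 and H2AC20 lie between 149782689 and 149887411 on chromosome 1 with a median of 3.77 by the authors' deposited table, and H2BC26 lies from 228458103 to 228458558.

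The other protein-coding genes listed within the span were lower. Of 15 other protein-coding genes there 4 were listed, and all 4 fell under either compound, where 50.1% of all listed genes were lower with 955 and 52.5% with SNS-032. ABT1, a basal transcription activator, was at -3.27 with 955 and -4.51 with SNS-032, by the authors' deposited table. The zinc finger genes ZNF322, ZNF391 and ZNF184 were at -2.85, -1.22 and -2.11 with 955 in the authors' deposited table. A transfer RNA gene, TRR-TCG2-1, was at 5.36 with 955 in the authors' deposited table. The pseudogenes BTN2A3P and GUSBP2, also listed in the span, were past the threshold and higher with 955, at 2.21 and 1.86.

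**Figure D3:**
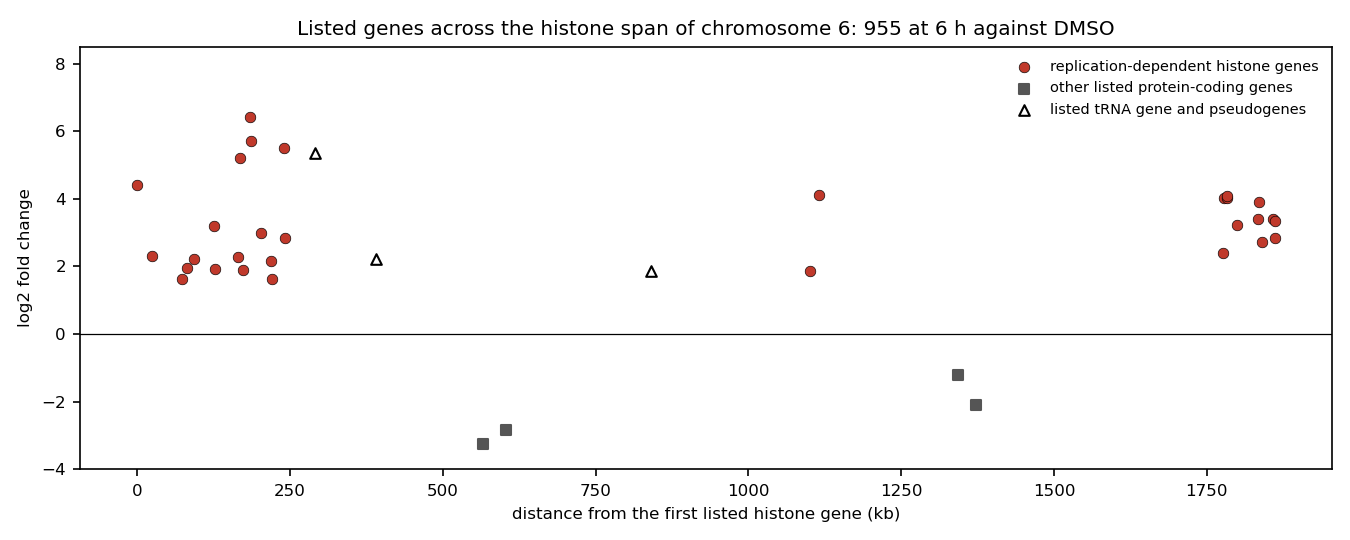
Log2 fold change with 955 at 6 h (y axis) of listed genes by distance in kb from the first listed histone gene of chromosome 6 (x axis). Circles are the 30 replication-dependent histone genes, squares the 4 other protein-coding genes and triangles a transfer RNA gene and 2 pseudogenes. On the authors' scaling the circles and triangles lie above 0 and the squares below 0, and on mitochondrial scaling some points above 0 turn negative.

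Genes that share a promoter region could be compared in 5 pairs on opposite strands whose starts lie 223 to 246 bases apart. With 955 at 6 h H2AC14 and H2BC14 were at 4.03 (SE 0.54) and 4.08 (SE 0.74) in the authors' deposited table. H2BC4 and H2AC6 were at 1.97 (SE 0.53) and 2.23 (SE 0.65), and H2AC17 and H2BC17 at 2.85 (SE 0.29) and 3.34 (SE 0.98), in the authors' deposited table. In these pairs, and in H2BC8 with H2AC8, the 2 genes differed by less than the sum of their SE. H3C4 and H2BC7 differed more, at 2.28 (SE 0.48) and 5.21 (SE 0.51) in the authors' deposited table. H3C4 overlaps H2AC7, and whether counting used strand is not given in the sources used here, so the H3C4 value is uncertain. H2BC18, H2BC5, H2AX and H3-3A also overlap another annotated gene.

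Some histone genes share much of their sequence with other histone genes. The share of 50-base windows of a member's transcripts found in another histone gene was 0.0436% at the median of the replication-dependent members, and it was highest for H4C12 (100%), H2AC14 (83.7%), H3C13 (78.2%) and H2AC13 (62.3%). The 28 members with under 10% shared windows were all higher with 955 (35.2% of all listed genes), with a median of 3.10. The share counts exact matches over whole transcript models, some with long stretches after the stem-loop, so these members may still share reads. With SNS-032 27 of the 28 were past the threshold and higher (37.8% of all listed genes). By gene structure, 30 of the 34 had 1 exon in every GENCODE model. Their median with 955 was 3.29, and that of the 4 with a spliced model (H2AC6, H2BC4, H2BC5 and H2BC18) was 2.10, from the authors' deposited table. The 13 members in which the stem-loop was found had a median of 3.77 and the 18 whose models stop at the stop codon a median of 3.29, with overlapping ranges, from the authors' deposited table. In the models with a stem-loop, 39 to 1917 bases followed it.

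Other listed nuclear protein-coding genes with 1 exon mostly fell. Of 103 listed, 5 were higher and 80 (77.7%) lower with 955 at 6 h, with a median of -1.49, by the authors' deposited table, where 35.2% of all listed genes were higher and 50.1% lower. With SNS-032 5 were higher and 94 (91.3%) lower, with a median of -1.81, by the authors' deposited table, against 37.8% and 52.5%. At 1 h 0 were higher and 40 (38.8%) lower, against 7.71% of listed genes, with a median of -1.02 by the authors' deposited table. H2AX, which also has 1 exon and a stem-loop, lay on the side of these genes.

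Among genes that make and process replication-dependent histone mRNA more were lower than higher at 6 h, which also held for all listed genes. Of 29 on a list, 16 were listed by the authors, and with 955 at 6 h 2 (12.5%) were past the threshold and higher and 10 (62.5%) lower, against 35.2% and 50.1% of all listed genes, with a median of -1.24 against -1.03 for all listed genes in the authors' deposited table. With SNS-032 3 were higher and 9 lower (56.3%, against 52.5% of listed genes), and at 1 h 0 were higher and 3 lower (18.8%, against 7.71%), by the authors' deposited table. SLBP, the protein that binds the stem-loop, was at -0.19 (FDR 0.692) after 1 h, -2.02 (SE 0.13, FDR 2.66e-11) after 6 h of 955 and -2.11 (SE 0.13, FDR 1.07e-11) after SNS-032 in the authors' deposited table. CPSF3, the endonuclease that cuts histone and other pre-mRNAs, was at -1.49 (SE 0.15) with 955 and -1.31 (SE 0.15) with SNS-032, by the authors' deposited table. SYMPK, a scaffold of the cleavage complex, was at 1.03 and 1.16, and CPSF1 at 0.96 and 1.14, in the authors' deposited table; on mitochondrial scaling the SYMPK values were -1.05 and -1.19 and the SNS-032 value of CPSF1 -1.20.

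Named after their values were seen, NPAT, a coactivator of histone gene transcription, LSM11, a subunit of the U7 particle that guides histone 3′ cleavage, and CSTF1 were the 3 lower at 1 h. In the authors' deposited table NPAT was at -1.23 after 1 h (SE 0.16, FDR 4.47e-05) and at -0.77 and -0.48 after 6 h of 955 and of SNS-032, both within the fold bound. LSM11 was at -1.05 after 1 h (SE 0.20, FDR 0.00232) and at 0.04 and 0.18 at 6 h in the authors' deposited table. Its partner in the U7 particle, LSM10, was at -0.19 at 1 h and -2.69 and -2.95 at 6 h in the authors' deposited table.

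Histone chaperones carry histones to DNA, and S phase genes drive or accompany DNA replication. For both lists the shares of all listed genes to read the counts against are 35.2% higher and 50.1% lower with 955 at 6 h and 37.8% higher and 52.5% lower with SNS-032. Of 33 chaperone genes on a list 15 were listed, and 3 were higher and 11 lower for 955 at 6 h, and 3 higher and 12 lower for SNS-032, as the authors' deposited table has them. VPS72 and YEATS4, subunits of the machinery that deposits H2A.Z, were at -3.28 (SE 0.17) and -2.77 (SE 0.16) with 955 in the authors' deposited table. ASF1A, a chaperone of H3 and H4, was at -2.66 (SE 0.16) and HJURP, the chaperone of CENPA, at -2.28 (SE 0.17) with 955 in the authors' deposited table. Of 44 S phase genes 22 were listed, with 0 higher and 18 lower for 955 at 6 h and 2 higher and 16 lower for SNS-032, at medians of -1.51 and -1.53 in the authors' deposited table. PCNA, the sliding clamp of DNA polymerases, was at -3.14 (SE 0.15) with 955 and -4.21 (SE 0.16) with SNS-032, CCNA2 at -3.65 (SE 0.17) and -3.83 (SE 0.17), FEN1 at -2.58 (SE 0.16) and -3.09 (SE 0.17), and CDT1 at -1.69 (SE 0.12) and -1.85 (SE 0.12), in the authors' deposited table.

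Short noncoding RNAs known to lack poly(A) tails moved with the replication-dependent histone genes. The list held 43 of them and was written with the rise of SNORD3A and RPPH1 known, so its direction is not independent evidence. All 16 listed were past the threshold and higher after either compound at 6 h, with medians of 4.73 for 955 and 6.49 for SNS-032, and 3 were higher at 1 h, in the authors' deposited table. Of all listed genes, 35.2% were higher with 955 at 6 h, 37.8% with SNS-032 and 0.729% with 955 at 1 h. Like the histone members, these 16 were listed for having changed, and the others are not analysed here. The spliceosomal RNA RNU4-2 was at 7.25 (SE 0.61) with 955 and 8.87 (SE 0.61) with SNS-032, and RNU11 at 8.17 (SE 0.70) and 10.1 (SE 0.69), in the authors' deposited table. SNORD3A was at 5.22 and 7.002 and RPPH1 at 4.44 and 6.07 in the authors' deposited table. The labels name an mRNA library kit and do not say how mRNA was selected, so which forms of histone RNA entered the libraries cannot be told from these values, and the part of library capture in the histone result was not tested.

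**Figure D4:**
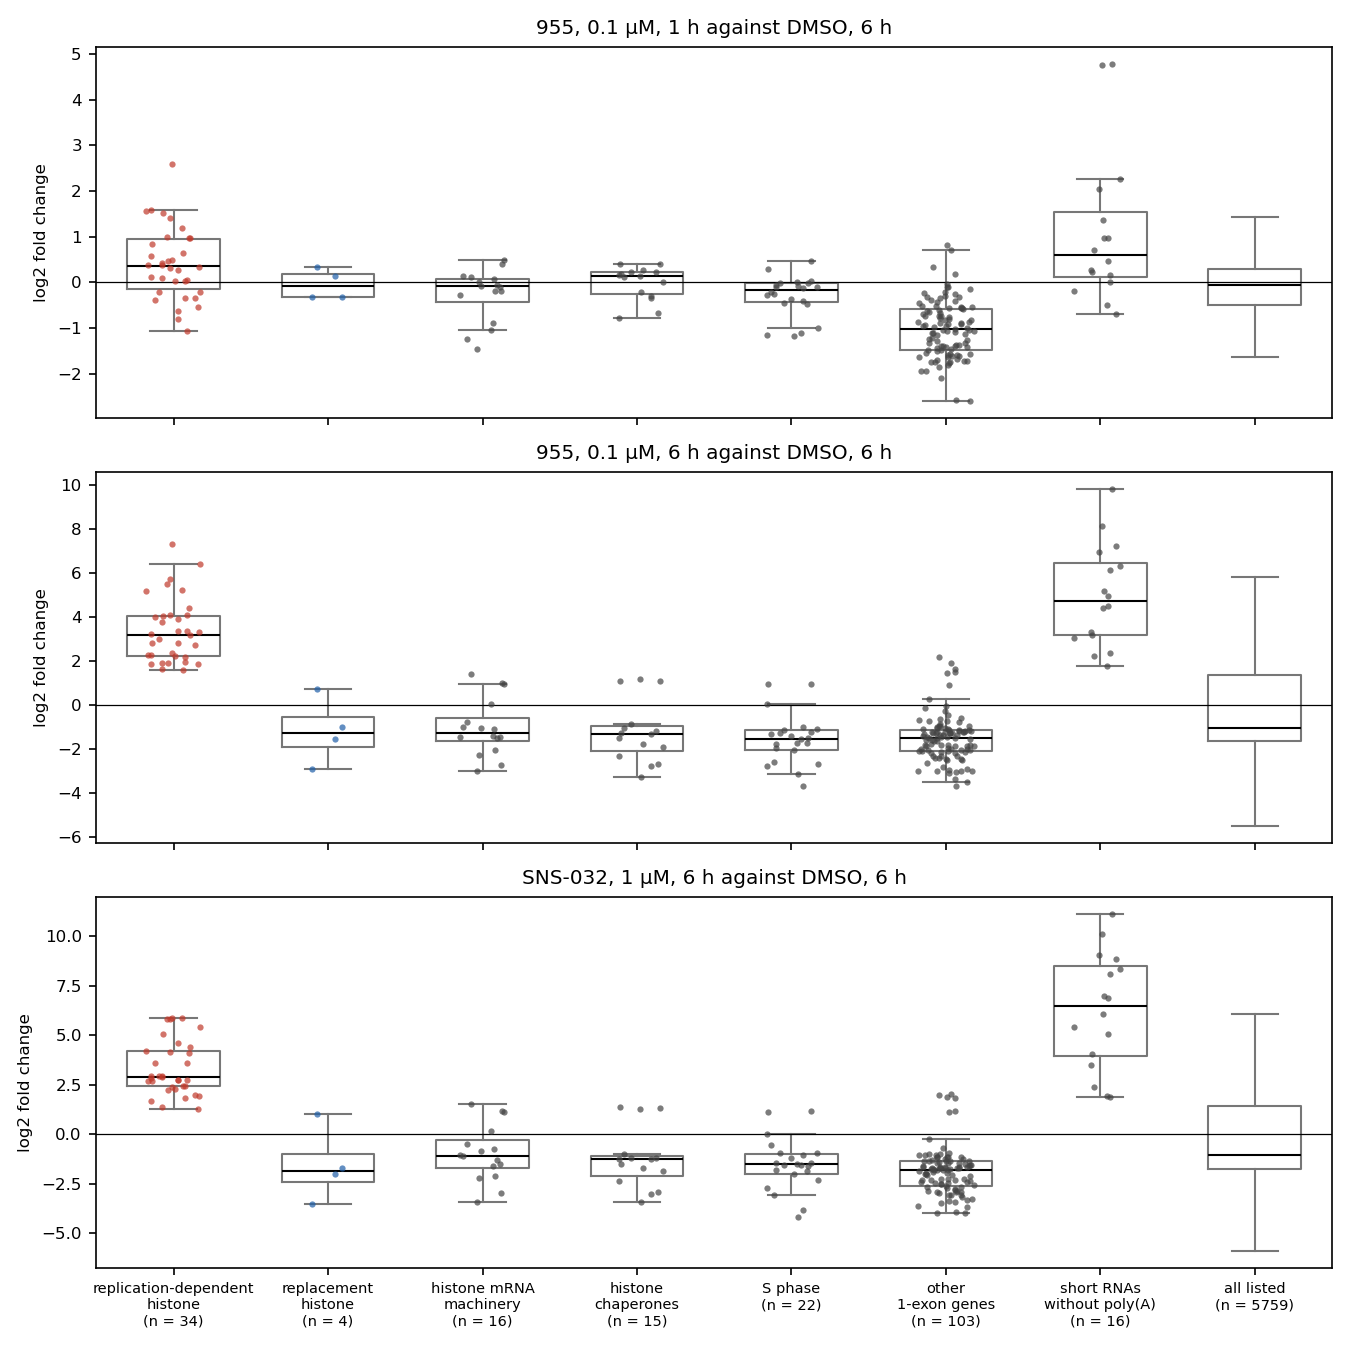
Log2 fold change against DMSO (y axis) in the 3 comparisons for the 2 histone classes, genes of histone mRNA synthesis and processing, histone chaperones, S phase genes, other genes with 1 exon, short RNAs without poly(A) and all listed genes (x axis, n per group). Points are genes, boxes the quartiles with the median, whiskers reach at most 1.5 times the box. On the authors' scaling the 6 h boxes of replication-dependent histones and of the short RNAs lie above 0, and the medians of the other gene lists lie below 0, while on mitochondrial scaling the replication-dependent medians fall to 1.15 and 0.54.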

How the data were processed

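RNA from 12 MOLT4 samples in 4 groups of 3 was sequenced. The submitters' processing notes name DESeq2 and hg38 without a role. The aligner, counter, annotation, strand setting and filters are not given in the sources used here. Per the file headers, the authors deposited, for each of 3 comparisons with DMSO, a log2 fold change, an average level in log2 CPM, an F statistic (a score), a p-value and an FDR. Fold changes were read as log2, since each gene's largest change in size was at least 1.00, a bound of that scale. Per-sample values were not used, so depth is unknown and precision rests on the implied SE, the absolute log2 fold change over the root of F.

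Gene IDs were matched to RefSeq GRCh38.p14 (5727 of 5759). Members and lists were chosen with earlier results of these data known. Treated groups were compared by the difference of 2 log2 fold changes over the root mean square of their SE, with each gene's denominator degrees of freedom solved from F and the p-value, and Benjamini-Hochberg adjustment over the 5759 genes. This contrast was tested on simulated log values without low counts, so that test does not cover the low-level members. Under another scaling nothing was refitted: 1 value was subtracted per comparison and the implied SE was kept. For comparisons with DMSO, the p-values of the 5759 listed genes were then adjusted with the number of tests set to 28395. That number was recovered from the deposited p-values and FDR. Unlisted genes could not be ranked, so the counts under another scaling are approximate. Full statistics are given for the 8 replication-dependent members with the largest absolute change with 955 at 6 h at an average level of at least 1 log2 CPM, for the H1 and replacement members, and from other lists for up to 4 genes by F. Alternatives were an FDR of 0.01, other fold bounds, 2 scalings, a level filter, H2AX in the other class and 2 other SE. Python 3.11.15 and SciPy 1.17.1 were used.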

Additional observations from a re-analysis of the deposited data

Results flagged for a closer look

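The log2 fold change of 955 against DMSO differed between 6 h and 1 h, by the approximate contrast, in 33 of the 34 replication-dependent histone genes, all higher at 6 h. It differed in 2 of the 4 replacement genes, H2AX and H2AZ1, both lower at 6 h. Both times are compared with the same DMSO samples, collected at 6 h, so time in culture and the effect of 955 cannot be told apart.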

How the results depend on the processing

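No paired analysis was possible because the table holds no values per sample, and leaving out replicates was not run for the same reason. At 1 h the count of replication-dependent genes past the threshold was 0 at an FDR of 0.01 and 0 at a fold bound of 2, against 1. On mitochondrial scaling it was 1, a gene lower than DMSO, and the replacement count was 1 in place of 0. With 955 at 6 h mitochondrial scaling left 14 replication-dependent genes of 34 and raised the replacement count from 2 to 4. The replacement count was also 4 without a fold bound, 1 at a bound of 2 and 1 without H2AX. With SNS-032 mitochondrial scaling left 9 replication-dependent genes of 32, and the replacement count of 4 became 2 at a bound of 2 and 2 after centring on the listed genes. Members with an average level of at least 1 log2 CPM gave class differences of 5.04 with 955 and 5.46 with SNS-032. That average includes the treated samples, so the filter keeps members partly for being high there and is no independent check. The contrast of 6 h with 1 h had 21 histone genes on mitochondrial scaling against 35, and that of the compounds 2 without a fold bound against 0. Mitochondrial scaling turned the sign of 17 called values. With 955 these were H2BC5 -0.15, H2AC20 -0.15, H2BC9 -0.43, H2BC4 -0.10, H4C3 -0.45, H4C5 -0.17, H2AC11 -0.19 and SYMPK -1.05. With SNS-032 they were H3-3A -1.31, SYMPK -1.19, H2AC6 -0.044, H2AC20 -0.12, H2BC9 -0.97, H3C11 -0.36, H3C7 -0.53, H2AC11 -0.69 and CPSF1 -1.20. The setting subtracts 1 value from every gene of a comparison, which by construction lowers them all. Unknown depth limits the low-level members most, whose implied SE with 955 at 6 h reached 1.16.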

Other observations

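The paired stem-loop sequence was also found in transcripts of 5 listed genes that encode no histone, of 5221 searched (0.0958%). With 955 at 6 h they ran on the log2 scale from -2.28 for ZNF142 to 0.90 for EPN2, with LSM4 at 0.89, WDR7 at -1.22 and SLC19A1 at -1.79, in the authors' deposited table. With SNS-032 EPN2 was at 1.29 and LSM4 at 1.08, both past the threshold and higher, WDR7 at -0.96, SLC19A1 at -1.78 and ZNF142 at -2.21, in the authors' deposited table. With 955 0 of the 5 were past the threshold and higher (35.2% of all listed genes) and 3 were lower (50.1%). With SNS-032 37.8% of all listed genes were higher.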
